A study of Homo sapiens with 4 samples.

Results

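The genes described here carry the gene-family symbols of the cell division machinery: cyclins and cyclin-dependent kinases (CDKs), CDC, MCM, ORC and GINS genes, E2F and MYB factors, replicative polymerase and clamp loader genes, CENP genes, kinesins (KIF) and mitotic kinases. They were taken by symbol, CDC42 left out, without regard to their values, and 117 of the 7640 genes in the deposited table matched. Of these, 112 had a mean of at least 1 FPKM (fragments per kilobase of transcript, adjusted for library depth) over the libraries and are called measured, among 6139 measured genes in all. The members not measured were CCNB3, CDC14C, KIF17, KIF21B and KIF26B. Families are wider than their usual role, so the set also held kinesins that carry cargo and CDKs that act in transcription or in neurons, and these were kept as groups of their own.

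Messenger RNA was sequenced from HCT116 and RKO, established human colorectal cancer cell lines, with EZH2 lowered by a lentiviral short hairpin RNA or as a control labelled NC. The sample titles do not say what the control cells carried. EZH2 is the methyltransferase of Polycomb repressive complex 2, which marks chromatin with H3K27me3. The groups were HCT116_shE2, HCT116_NC, RKO_shE2 and RKO_NC, where shE2 is the EZH2 hairpin and NC the control, and each was 1 library. Per the study's methods, hairpins were in a pLKO.1 vector and the cells were stable puromycin-selected populations, and the sample titles do not name the hairpin, so effects of EZH2 loss and of the hairpin itself cannot be told apart. Differences within a line set 1 library against 1 other and have no replicate check.

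Cell division runs through phases that call on different genes. Cyclin D with CDK4 or CDK6 and then cyclin E with CDK2 take cells into S phase and free the E2F factors, which switch on the replication genes, among them the ORC and MCM proteins that license origins and the CDC45 and GINS proteins that complete the replicative helicase. Mitotic genes come on later, under B-MYB and FOXM1, and their products, such as centromere proteins, kinesins and the polo and aurora kinases, build the spindle, attach it to chromosomes and check the attachments.

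Promoter sequence reflects this division, and 2 kinds of element were looked up. E2F sites mark G1/S genes, and the cell cycle genes homology region (CHR), often with a CCAAT box upstream, marks G2/M genes. The stretches below show each kind in the members whose levels differed most between the RKO libraries, among the higher ones with a CHR and the lower ones with an E2F site inside the stretch itself. CENPF, whose RKO difference was larger, has its CHR in the wider window searched below but not in the stretch, and is not shown. MYBL1 and TTK among the higher members and CCND1 among the lower differed more than some genes shown. They had no promoter entry and could not be searched. The stretches run from 170 bases before to 30 after the RefSeq start (GRCh38.p14), 5′ to 3′ on the gene's strand, with matches to the searched motifs in capitals. The first 3 genes were higher in RKO_shE2 than in RKO_NC and lie at chr1:200620722-200620921 (minus strand), chr11:28108127-28108326 (minus strand) and chr10:89701420-89701619 (plus strand).
KIF14: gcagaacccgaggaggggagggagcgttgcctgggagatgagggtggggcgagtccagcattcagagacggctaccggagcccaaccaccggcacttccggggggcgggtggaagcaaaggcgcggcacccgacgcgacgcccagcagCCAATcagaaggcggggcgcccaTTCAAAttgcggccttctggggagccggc
KIF18A: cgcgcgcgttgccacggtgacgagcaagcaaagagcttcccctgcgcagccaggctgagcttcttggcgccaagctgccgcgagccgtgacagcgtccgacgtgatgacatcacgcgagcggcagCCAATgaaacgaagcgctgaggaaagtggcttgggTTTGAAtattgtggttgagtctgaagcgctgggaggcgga
KIF20B: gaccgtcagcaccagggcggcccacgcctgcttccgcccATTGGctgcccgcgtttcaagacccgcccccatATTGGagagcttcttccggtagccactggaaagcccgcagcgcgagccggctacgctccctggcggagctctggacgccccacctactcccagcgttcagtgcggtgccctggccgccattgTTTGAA
The next 3 were lower in RKO_shE2 than in RKO_NC and lie at chr16:85688925-85689124 (minus strand), chr20:25407503-25407702 (plus strand) and chr3:127598241-127598440 (plus strand).
GINS2: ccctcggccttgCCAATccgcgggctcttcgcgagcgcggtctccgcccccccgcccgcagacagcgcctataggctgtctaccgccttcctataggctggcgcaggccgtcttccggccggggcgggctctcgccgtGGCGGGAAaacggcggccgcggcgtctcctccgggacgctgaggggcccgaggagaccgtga
GINS1: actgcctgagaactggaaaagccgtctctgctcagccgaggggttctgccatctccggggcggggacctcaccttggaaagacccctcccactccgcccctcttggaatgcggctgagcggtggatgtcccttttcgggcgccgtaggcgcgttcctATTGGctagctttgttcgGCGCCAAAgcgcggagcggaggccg
MCM2: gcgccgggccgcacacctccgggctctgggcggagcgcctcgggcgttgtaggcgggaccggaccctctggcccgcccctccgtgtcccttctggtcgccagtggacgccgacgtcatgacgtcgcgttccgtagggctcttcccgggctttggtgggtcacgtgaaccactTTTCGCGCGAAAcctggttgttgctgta
In the kinesin promoters the capitals are CHR elements (TTTGAA, or TTCAAA on the other strand) and CCAAT boxes (CCAAT, or ATTGG on the other strand). KIF18A has its CCAAT box 45 bases and its CHR 10 bases before the start. In the replication promoters the capitals are E2F matches and CCAAT boxes, and the E2F matches of MCM2 are a pair that overlap on opposite strands.

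A promoter window of 300 bases, from 250 before to 50 after the start, was in the RefSeq table for 97 members, 94 of them measured. It was searched on both strands for TTTGAA, for CCAAT, and for TTTCGCGC, TTTGGCGC and TTCCCGCC as E2F sites. Of the 94 measured members 24 held a CHR, 51 a CCAAT box and 25 an E2F site, which is 25.5%, 54.3% and 26.6%. Over all 27305 promoters in the table the shares were 15.4%, 35.7% and 4.30%, and over 4939 measured genes they were 10.4%, 37.7% and 7.11%. The groups by role held them unequally. Mitotic kinesins had a CHR in 8 of 11 promoters and an E2F site in 1, and origin licensing and helicase genes had a CHR in 0 of 15 and an E2F site in 8. A match is a description of letters and not a bound site.

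EZH2 had 12.61 FPKM in HCT116_shE2 against 31.49 in HCT116_NC, and 6.61 FPKM in RKO_shE2 against 33.61 in RKO_NC. It was lower in both knockdown libraries, with ratios of depth-scaled counts of 0.449 (exact binomial 95% interval 0.409 to 0.492) and 0.227 (0.202 to 0.253). Such intervals cover counting error only. The listed genes took 7898152 to 8185776 expected counts per library, and the members took 2.02% of them in HCT116_shE2, 2.11% in HCT116_NC, 2.20% in RKO_shE2 and 2.15% in RKO_NC. Of 11 markers of colorectal epithelium 7 were listed, summing to 2611 and 2710 FPKM in HCT116_shE2 and HCT116_NC and to 205 and 168 FPKM in RKO_shE2 and RKO_NC. KRT19, EPCAM, KRT20 and CDH1 were at 0.10 FPKM or less in RKO. KRT18 had 187.91 and 154.04 FPKM in RKO_shE2 and RKO_NC, CDX2 9.24 and 6.91, and KRT8 7.63 and 7.05. The 1 leukocyte marker listed of 5, CD68, had 271 and 284 FPKM in RKO_shE2 and RKO_NC. Endothelial and fibroblast markers, 1 listed of each, were at 4.05 FPKM or less in every library.

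In HCT116 the cell cycle genes differed little between the libraries. On the scale of log2(FPKM + 1), shE2 minus NC, the median over the 112 measured members was -0.04 with a standard deviation of 0.19, beside 0.01 and 0.26 over all 6139 measured genes. Past 1.2-fold, 11 members were higher and 4 lower in HCT116_shE2, where 12.7% of all measured genes were higher and 9.66% lower. With median-of-ratios scaling the split was 7 higher and 7 lower. Of the 11 higher ones 5 were transport or other kinesins and 2 were CDKs with a known role outside the cell cycle, and with median-of-ratios scaling the kinesins were 2.

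In RKO the same genes spread widely and in both directions. The median change was 0, beside 0.01 over all measured genes, and the standard deviation was 0.68, beside 0.46. Past 1.2-fold, 31 members were higher and 20 lower in RKO_shE2 (27.7% and 17.9% of the measured members), where 22.7% of all measured genes were higher and 10.9% lower. With median-of-ratios scaling, which put the RKO median of all measured genes at -0.07, the split was 28 higher and 41 lower and the member median -0.13. The lower quartile was then -0.35 over the members and -0.26, close to the 1.2-fold limit, over all measured genes. How many of all measured genes passed 1.2-fold with that scaling was not counted. Of the 31 higher members 7 were centromere and kinetochore genes, 6 mitotic kinesins, 4 mitotic kinases and 4 cyclins or CDKs, but 3 were origin licensing genes and 1 a polymerase subunit, and the rest were E2F5, MYBL1, TOP2A, CDK19, KIF5B and KIF21A. Of the 20 lower members 11 were origin licensing and helicase genes and 3 polymerase or clamp loader genes. In HCT116 17 of those 20 lower members were also below 0, at a median of -0.10, while 12 of the 31 higher members were below 0. The HCT116 median over all measured members was itself below 0, at -0.04, beside 0.01 over all measured genes.

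**Figure D1:**
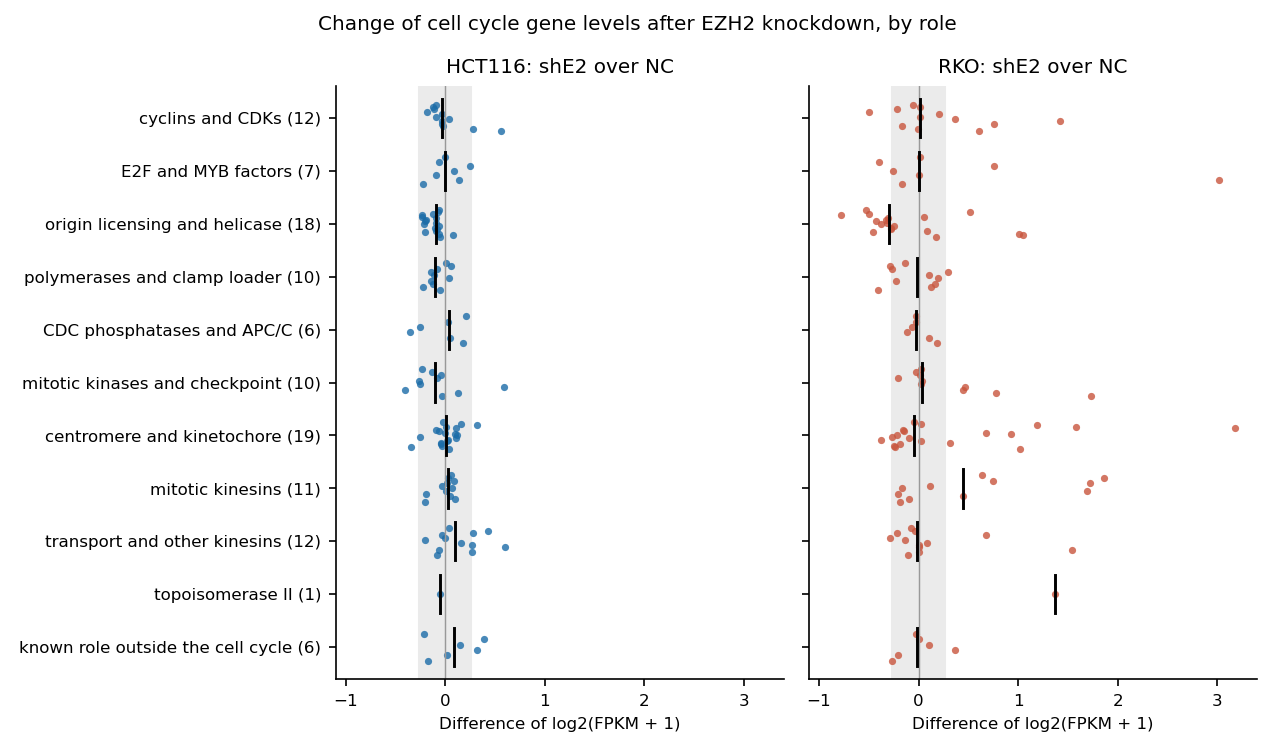
Change of each measured member, shE2 minus NC on the log2(FPKM + 1) scale, in HCT116 (left) and RKO (right), 1 point per gene, grouped by role with the number of genes in brackets. Black bars are group medians and the grey band is 1.2-fold, and most HCT116 points lie inside it while RKO points reach 3.18 (CENPF) upward and -0.78 (GINS2) downward.

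Among the cyclins and CDKs, which drive each transition, 4 of 12 measured members were higher and 1 lower in RKO_shE2. The split was 3 higher and 3 lower with median-of-ratios scaling. CCNE2, one of the E cyclins that start S phase with CDK2, had 12.83 FPKM in RKO_shE2 against 4.18 in RKO_NC, and 8.82 in HCT116_shE2 against 9.07 in HCT116_NC. Its ratio of depth-scaled counts in RKO was 3.37 (2.88 to 3.98). Its paralog CCNE1 had 40.75 FPKM in RKO_shE2 against 31.30 in RKO_NC, and 21.78 in HCT116_shE2 against 21.22 in HCT116_NC, a difference of 0.37 in RKO that was 0.22, under 1.2-fold, with median-of-ratios scaling. Both E cyclins thus stood higher in RKO_shE2, CCNE2 by the larger ratio. CDK1, the kinase of mitotic entry, had 56.35 FPKM in RKO_shE2 against 32.96 in RKO_NC, and 67.84 in HCT116_shE2 against 69.23 in HCT116_NC.

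CCND1, the D cyclin that answers growth signals, had 52.51 FPKM in RKO_shE2 against 74.62 in RKO_NC, and 110.90 in HCT116_shE2 against 126.10 in HCT116_NC. The ratios were 0.704 (0.676 to 0.732) in RKO and 0.879 (0.854 to 0.906) in HCT116, lower in both lines although within 1.2-fold in HCT116. CCND3, another D cyclin, had 50.13 FPKM in RKO_shE2 against 49.57 in RKO_NC, and 16.33 in HCT116_shE2 against 17.50 in HCT116_NC. CCNB1, the mitotic cyclin and the most abundant of the group, had 128.72 FPKM in RKO_shE2 against 127.79 in RKO_NC, and 118.57 in HCT116_shE2 against 129.31 in HCT116_NC. It lay inside 1.2-fold in both lines, as did CCND3.

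CDK6, the partner of D cyclins, was one of the members that stood higher in both knockdown libraries. It had 10.78 FPKM in RKO_shE2 against 6.75 in RKO_NC, and 11.60 in HCT116_shE2 against 7.52 in HCT116_NC. The ratios were 1.6 (1.5 to 1.7) and 1.54 (1.45 to 1.65), and the differences were 0.60 and 0.56, or 0.31 and 0.52 with a GC trend subtracted. CDK3 had 1.45 FPKM in RKO_shE2 against 1.46 in RKO_NC, and 3.79 in HCT116_shE2 against 2.94 in HCT116_NC, a difference of 0.28 in HCT116 whose count ratio of 1.29 had an interval from 0.951 to 1.76.

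The E2F and MYB factors sit above the other groups, since E2F proteins act on the replication genes and B-MYB (MYBL2) on the mitotic genes. MYBL1, the A-MYB paralog best known for its role in the testis, had 32.46 FPKM in RKO_shE2 against 3.13 in RKO_NC, and 4.71 in HCT116_shE2 against 4.2 in HCT116_NC. Its count ratio in RKO was 11.2 (9.88 to 12.7), one of the largest of any member, and RKO_shE2 stood above the other 3 libraries. MYBL2 had 28.56 FPKM in RKO_shE2 against 32.12 in RKO_NC, and 47.34 in HCT116_shE2 against 55.34 in HCT116_NC, so the paralogs differed in opposite directions in RKO and MYBL2 was lower in both lines within 1.2-fold. E2F5, a repressor of the family, had 30.87 FPKM in RKO_shE2 against 17.88 in RKO_NC, and 7.18 in HCT116_shE2 against 5.91 in HCT116_NC.

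E2F2, an activator, had 5.05 FPKM in RKO_shE2 against 6.98 in RKO_NC, and 8.62 in HCT116_shE2 against 9.08 in HCT116_NC. E2F1, another activator, had 19.38 FPKM in RKO_shE2 against 19.20 in RKO_NC, and 12.36 in HCT116_shE2 against 12.35 in HCT116_NC. E2F8, an atypical repressor, had 4.19 FPKM in RKO_shE2 against 4.17 in RKO_NC, and 6.46 in HCT116_shE2 against 6.93 in HCT116_NC. E2F1 and E2F8 were level in both lines, with RKO ratios of 1.01 (0.923 to 1.10) and 0.946 (0.799 to 1.12).

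Origin licensing and helicase genes held most of the lower members. Of 18 measured, 11 were lower past 1.2-fold in RKO_shE2 and 3 higher, with a median of -0.29, and with median-of-ratios scaling 12 were lower and 3 higher. In HCT116 none passed 1.2-fold, but 17 of the 18 were below 0, with a median of -0.09. Other groups also lay mostly below 0 there: 9 of 12 cyclins and CDKs, 8 of 10 mitotic kinases and checkpoint genes, and 7 of 10 polymerase or clamp loader genes. Mitotic kinesins (3 of 11) and transport or other kinesins (4 of 12) did not. GINS2, a subunit of the GINS complex of the helicase, had 39.14 FPKM in RKO_shE2 against 67.74 in RKO_NC, and 41.57 in HCT116_shE2 against 49.17 in HCT116_NC. Its ratio was 0.578 (0.530 to 0.629) in RKO and 0.845 (0.769 to 0.929) in HCT116.

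GINS1 had 15.49 FPKM in RKO_shE2 against 22.29 in RKO_NC, and 11.65 in HCT116_shE2 against 12.80 in HCT116_NC. CDC45, which joins GINS and the MCM ring, had 23.17 FPKM in RKO_shE2 against 33.95 in RKO_NC, and 13.95 in HCT116_shE2 against 14.63 in HCT116_NC. ORC1, the largest subunit of the origin recognition complex, had 7.24 FPKM in RKO_shE2 against 10.33 in RKO_NC, and 12.25 in HCT116_shE2 against 14.30 in HCT116_NC. All of these had lower values in both lines. In HCT116, however, the count intervals of GINS1 (0.816 to 1.01) and CDC45 (0.842 to 1.10) reached 1, while that of ORC1 (0.769 to 0.949) did not. Not every GINS gene was lower in both lines: GINS3 had 16.20 FPKM in RKO_shE2 against 15.59 in RKO_NC, and 10.77 in HCT116_shE2 against 12.84 in HCT116_NC.

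MCM2 to MCM7 form the ring that is loaded on origins and unwinds DNA, and all of them were lower in both knockdown libraries. The HCT116 count interval of MCM5 (0.910 to 1.00) reached 1. In RKO MCM2, MCM3, MCM4, MCM6 and MCM7 passed 1.2-fold and MCM5, at -0.24, did not. MCM2 had 42.11 FPKM in RKO_shE2 against 56.91 in RKO_NC, and 54.14 in HCT116_shE2 against 62.46 in HCT116_NC. MCM4 had 92.25 FPKM in RKO_shE2 against 119.71 in RKO_NC, and 62.47 in HCT116_shE2 against 72.82 in HCT116_NC. MCM7, the most abundant, had 231.67 FPKM in RKO_shE2 against 280.59 in RKO_NC, and 170.28 in HCT116_shE2 against 180.89 in HCT116_NC. Their RKO ratios were 0.738 (0.703 to 0.776), 0.771 (0.749 to 0.793) and 0.826 (0.805 to 0.847), and none of these intervals reached 1. The HCT116 ratios were closer to 1, at 0.869 (0.828 to 0.911), 0.858 (0.826 to 0.891) and 0.948 (0.918 to 0.979).

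The exceptions were subunits and a kinase of the same step. ORC4, an origin recognition subunit, had 23.69 FPKM in RKO_shE2 against 10.94 in RKO_NC, and 29.72 in HCT116_shE2 against 28.05 in HCT116_NC. ORC3 had 19.31 FPKM in RKO_shE2 against 9.07 in RKO_NC, and 19.11 in HCT116_shE2 against 20.03 in HCT116_NC. CDC7, the kinase that activates the loaded MCM ring, had 8.43 FPKM in RKO_shE2 against 5.59 in RKO_NC, and 14.05 in HCT116_shE2 against 14.80 in HCT116_NC. The ORC genes therefore split, ORC1 lower and ORC3 and ORC4 higher in RKO_shE2.

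**Figure D2:**
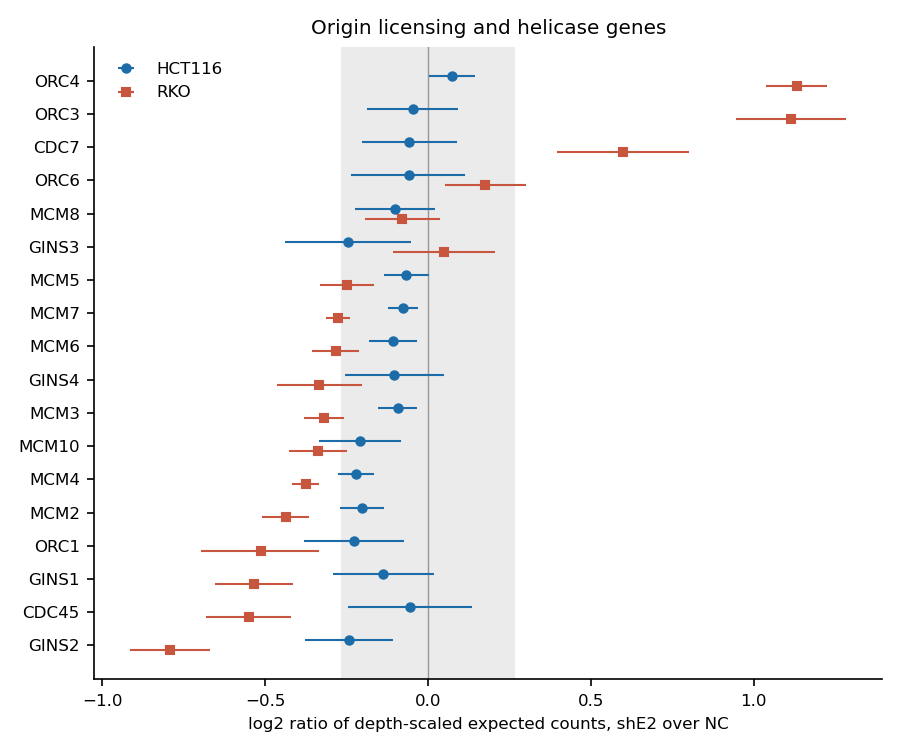
Ratio of depth-scaled expected counts, shE2 over NC, on a log2 axis for the 18 measured origin licensing and helicase genes in HCT116 (circles) and RKO (squares). Bars are exact binomial 95% intervals, which cover counting error only, and the grey band is 1.2-fold; the RKO points run from GINS2 at 0.578 to ORC4 at 2.19 before the log.

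Among the replicative polymerases and the clamp loader, 3 of 10 measured members were lower and 1 higher in RKO_shE2. RFC5, a clamp loader subunit, had 24.71 FPKM in RKO_shE2 against 33.07 in RKO_NC, and 43.98 in HCT116_shE2 against 45.75 in HCT116_NC. POLE3, a small subunit of polymerase epsilon, had 91.10 FPKM in RKO_shE2 against 84.65 in RKO_NC, and 52.28 in HCT116_shE2 against 56.72 in HCT116_NC. RFC2, another clamp loader subunit, had differences of -0.22 in RKO and -0.15 in HCT116. POLE3 and RFC2 lay inside 1.2-fold in both lines. The others past the fold in RKO were POLA2 and POLE, lower at -0.29 and -0.26, and POLE2, higher at 0.29. Inside 1.2-fold with a GC trend subtracted were all 3, at -0.25, -0.22 and 0.26, which left 1 of the group lower and 0 higher, while with median-of-ratios scaling 5 were lower and 0 higher.

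The centromere and kinetochore group held the member with the largest difference of all. CENPF, a large kinetochore protein that accumulates in G2 and mitosis, had 21.82 FPKM in RKO_shE2 against 1.52 in RKO_NC, and 39.57 in HCT116_shE2 against 36.62 in HCT116_NC. The count ratio in RKO was 14.4 (12.8 to 16.3), from 4124 against 289 counts, and the low value was that of RKO_NC alone. CENPE, the kinesin motor of the kinetochore, had 3.48 FPKM in RKO_shE2 against 0.50 in RKO_NC, and 8.30 in HCT116_shE2 against 8.23 in HCT116_NC. NUF2, a subunit of the microtubule-binding NDC80 complex, had 18.96 FPKM in RKO_shE2 against 8.83 in RKO_NC, and 23.78 in HCT116_shE2 against 23.17 in HCT116_NC. For CENPE and NUF2 too, RKO_NC was the lowest of the 4 libraries and the HCT116 libraries were level.

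In all, 7 of 19 measured centromere and kinetochore members were higher and 2 lower in RKO_shE2, and with median-of-ratios scaling 6 were higher and 8 lower. CENPC, which anchors the kinetochore to centromeric chromatin, had 3.87 FPKM in RKO_shE2 against 1.13 in RKO_NC, and 7.95 in HCT116_shE2 against 6.17 in HCT116_NC. It was past 1.2-fold higher in both lines, with count ratios of 2.43 (1.94 to 3.07) in RKO and 1.26 (1.11 to 1.45) in HCT116. CENPX, a small histone-fold protein, had 60.93 FPKM in RKO_shE2 against 71.82 in RKO_NC, and 73.37 in HCT116_shE2 against 93.22 in HCT116_NC. CENPM, of the inner kinetochore, had 21.52 FPKM in RKO_shE2 against 26.09 in RKO_NC, and 19.38 in HCT116_shE2 against 23.38 in HCT116_NC. CENPM had differences of -0.27 in RKO, just past 1.2-fold, and -0.26 in HCT116, just inside it. CENPV, among the most abundant of the group, had -0.19 and -0.04. CENPA, the histone that defines the centromere, was level, with differences of -0.05 in RKO and -0.03 in HCT116.

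Mitotic kinesins move chromosomes, slide spindle microtubules and build the midbody. Of 11 measured, 6 were higher and 0 lower in RKO_shE2, at a median of 0.45, although with median-of-ratios scaling 3 were also lower, and in HCT116 none passed 1.2-fold. KIF14, a cytokinesis kinesin, had 9.49 FPKM in RKO_shE2 against 1.89 in RKO_NC, and 8.82 in HCT116_shE2 against 8.63 in HCT116_NC. KIF18A, which shortens kinetochore microtubules to align chromosomes, had 4.99 FPKM in RKO_shE2 against 0.81 in RKO_NC, and 30.55 in HCT116_shE2 against 30.13 in HCT116_NC. KIF20B, a kinesin of cytokinesis, had 5.57 FPKM in RKO_shE2 against 1.04 in RKO_NC, and 13.42 in HCT116_shE2 against 13.33 in HCT116_NC. Their count ratios in RKO were 4.97 (4.34 to 5.72), 6.93 (5.04 to 9.73) and 5.36 (4.42 to 6.54).

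These are the genes whose CHR and CCAAT letters are shown above. The paralog KIF20A, also of cytokinesis, behaved otherwise, with 14.49 FPKM in RKO_shE2 against 16.40 in RKO_NC, and 49.99 in HCT116_shE2 against 47.59 in HCT116_NC. KIF2C, which depolymerises microtubules at centromeres, had 38.13 FPKM in RKO_shE2 against 40.96 in RKO_NC, and 43.80 in HCT116_shE2 against 40.75 in HCT116_NC. The other 3 higher kinesins were KIF15 (0.75), KIF11 (0.64) and KIF23 (0.45), with HCT116 differences of 0.09, 0.06 and 0.05. KIF22, a chromosome-arm kinesin and the most abundant of the group, had -0.21 in RKO and -0.19 in HCT116. KIF11 and KIF15 are motors that push spindle poles apart, and KIF23 is a part of the central spindle.

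**Figure D3:**
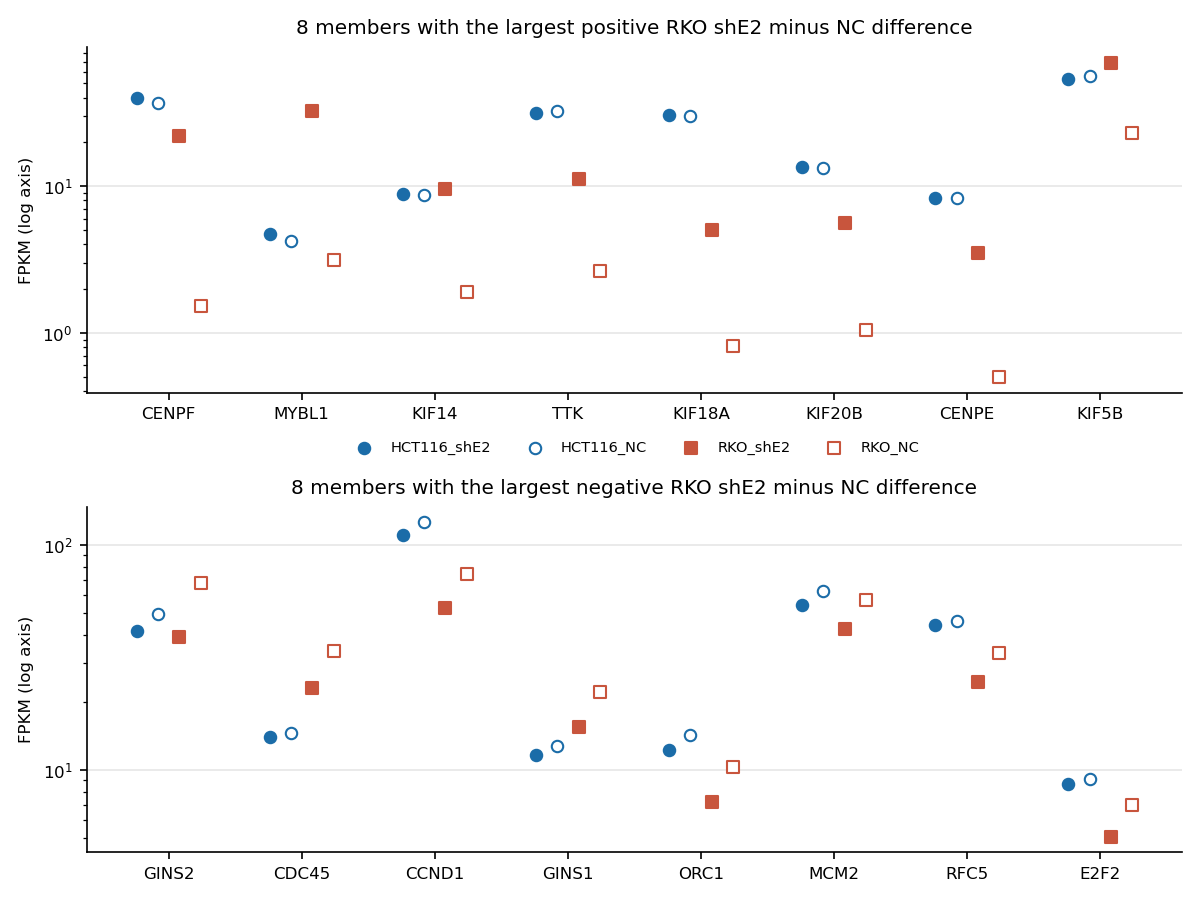
FPKM on a log axis in each of the 4 libraries for the 8 members with the largest positive (top) and the 8 with the largest negative (bottom) RKO difference, with HCT116 as circles and RKO as squares, filled for shE2 and open for NC. In the top panel the open RKO square is the lowest of the 4 points for every gene, and in the bottom panel it lies above the filled RKO square.

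The mitotic kinases and checkpoint genes split between members with large RKO differences and members that were level. TTK, the MPS1 kinase at the head of the spindle checkpoint, had 11.16 FPKM in RKO_shE2 against 2.65 in RKO_NC, and 31.53 in HCT116_shE2 against 32.29 in HCT116_NC. Its count ratio in RKO was 4.19 (3.51 to 5.03). PLK4, the kinase of centriole duplication, had 19.00 FPKM in RKO_shE2 against 10.67 in RKO_NC, and 15.85 in HCT116_shE2 against 14.45 in HCT116_NC. By contrast AURKB, the kinase of the chromosomal passenger complex, had 112.78 FPKM in RKO_shE2 against 114.72 in RKO_NC, and 65.19 in HCT116_shE2 against 71.40 in HCT116_NC. AURKA, the spindle pole paralog, had 54.43 FPKM in RKO_shE2 against 53.48 in RKO_NC, and 42.63 in HCT116_shE2 against 50.48 in HCT116_NC.

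PLK1, the main mitotic polo kinase, had 89.91 FPKM in RKO_shE2 against 88.10 in RKO_NC, and 93.67 in HCT116_shE2 against 112.14 in HCT116_NC. MAD2L1, the checkpoint protein MAD2, had 77.91 FPKM in RKO_shE2 against 75.80 in RKO_NC, and 59.57 in HCT116_shE2 against 71.92 in HCT116_NC. Both were level in RKO and lower in HCT116_shE2, at -0.26 and -0.27, of which MAD2L1 passed 1.2-fold. Less a GC trend, MAD2L1 stood at -0.27 in RKO and -0.31 in HCT116, past 1.2-fold lower in both. PLK1 then stood at 0.07 in RKO and -0.24 in HCT116. PLK2, a polo kinase of the stress response, had 0.44 FPKM in RKO_shE2 against 0.04 in RKO_NC, and 45.24 in HCT116_shE2 against 29.73 in HCT116_NC. In RKO that was 23 against 2 counts, a ratio of 11.6 with a counting interval of 2.88 to 102, and in HCT116 the ratio was 1.52 (1.42 to 1.63).

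The CDC phosphatases and APC/C group had no member past 1.2-fold in RKO, although with median-of-ratios scaling 1 was lower. CDC20, the activator of the anaphase-promoting complex, had 134.96 FPKM in RKO_shE2 against 141.02 in RKO_NC, and 175.77 in HCT116_shE2 against 210.20 in HCT116_NC. CDC25A, the phosphatase that activates CDK2 for S phase, had 21.92 FPKM in RKO_shE2 against 23.81 in RKO_NC, and 7.69 in HCT116_shE2 against 10.12 in HCT116_NC. CDC25A was the one member of the group past 1.2-fold lower in HCT116, with a ratio of 0.766 (0.677 to 0.866). CDC25B, which activates CDK1, had 26.30 FPKM in RKO_shE2 against 24.43 in RKO_NC, and 87.83 in HCT116_shE2 against 84.98 in HCT116_NC.

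TOP2A, the topoisomerase that untangles sister chromatids, had 36.65 FPKM in RKO_shE2 against 13.52 in RKO_NC, and 52.65 in HCT116_shE2 against 54.69 in HCT116_NC. The ratios were 2.71 (2.55 to 2.88) and 0.961 (0.925 to 0.999), so RKO_NC again was the lowest library.

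The kinesins of transport gave 5 of the 11 higher members in HCT116. KIF5A, a neuronal conventional kinesin, had 4.04 FPKM in HCT116_shE2 against 2.33 in HCT116_NC, and 0.01 FPKM in each RKO library. KIF13A, an endosome motor, had 10.04 FPKM in HCT116_shE2 against 7.19 in HCT116_NC, and 2.92 in RKO_shE2 against 3.02 in RKO_NC, but its difference of 0.43 in HCT116 was 0.20, inside 1.2-fold, on depth-scaled counts. KIF5C, another neuronal paralog, had 4.65 FPKM in HCT116_shE2 against 3.70 in HCT116_NC and had 0.00 FPKM in RKO_shE2 and in RKO_NC. The others were KIF13B (0.28) and KIF3C (0.27), and with median-of-ratios scaling KIF5C, KIF13B and KIF3C were inside 1.2-fold, at 0.24, 0.26 and 0.25. In RKO the ubiquitous paralog KIF5B had 69.12 FPKM in RKO_shE2 against 23.10 in RKO_NC, and 53.58 in HCT116_shE2 against 56.04 in HCT116_NC, a ratio of 2.99 (2.86 to 3.13). KIF21A, another cargo motor, had 4.81 FPKM in RKO_shE2 against 2.64 in RKO_NC, and 10.05 in HCT116_shE2 against 10.32 in HCT116_NC. KIF21B, under the filter on level, had 1.84 FPKM in HCT116_shE2 against 1.45 in HCT116_NC and no counts in RKO.

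Among members with a known role outside the cell cycle, CDK19, a kinase of the Mediator complex, had 2.88 FPKM in RKO_shE2 against 2.0 in RKO_NC, and 8.98 in HCT116_shE2 against 7.0 in HCT116_NC. CDK5, a kinase of neurons, had 27.51 FPKM in RKO_shE2 against 33.23 in RKO_NC, and 18.14 in HCT116_shE2 against 20.60 in HCT116_NC. CDK14, a kinase of Wnt signalling, had 5.35 FPKM in HCT116_shE2 against 3.85 in HCT116_NC and no counts in either RKO library, which allows up to 3 counts. CDC123, a factor of translation initiation, had 290.66 FPKM in RKO_shE2 against 296.11 in RKO_NC, and 93.15 in HCT116_shE2 against 108.54 in HCT116_NC. CDK19 was past 1.2-fold higher in both lines, and CDK14 was higher in HCT116_shE2, where its ratio was 1.31 (1.13 to 1.52).

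Few members differed alike in both lines. CDK6, CDK19, CENPC and PLK2 were past 1.2-fold higher in both, 4 of 112 members, where 3.99% of all measured genes were, and 0 members were lower in both, where 2.66% of all measured genes were. A common change was tested with limma on log2(FPKM + 1) with the line as a block, Benjamini-Hochberg adjusted over all measured genes. No member passed an adjusted p of 0.05 in either direction (lowest 0.661), and 0% of all measured genes were called higher and 0% lower. EZH2, the targeted gene, did not pass either (limma adjusted p 0.661), so the lack of calls says little about the members. Before adjustment, at a limma p under 0.05, 2 of 112 members were higher (CDK6 and PLK2) and 5 lower (CCND1, CENPX, GINS2, MCM2 and MCM4). Of all 6139 measured genes 168 were higher and 143 lower at that level. edgeR called 0 members and 0 of all measured genes, with 1 member higher and 0 lower at that level, beside 134 and 122 of all measured genes. DESeq2 called 0 members, with 3 and 2 at that level, beside 87 and 74 of all measured genes. It called 5 genes higher and 4 lower of all 6139, EZH2 among them, but gave no adjusted p for 51 of the 112 members. The fit had 1 residual degree of freedom, which measures how far the shE2 minus NC difference departs between RKO and HCT116. A change in 1 line alone therefore widens the error, as for CENPF (standard error 0.81), and cannot be told apart from technical spread. The same error enters the line differences below.

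The levels of the members were next set side by side between the lines. In the same limma fit 27 members were higher and 30 lower in RKO than in HCT116, where 24.4% of all measured genes were called higher and 39.7% lower. With median-of-ratios scaling the split was 38 and 23, beside 1903 higher and 2112 lower of all 6139 measured genes. CCND2, a D cyclin, had 37.54 and 32.33 FPKM in RKO_shE2 and RKO_NC, against 0.00 and 0.02 FPKM in HCT116_shE2 and HCT116_NC. The fitted difference was 5.15 ± 0.16 (SE) on the log2(FPKM + 1) scale, with an adjusted p from limma of 0.000695. KIF7, a kinesin of Hedgehog signalling, had 9.90 and 10.77 FPKM in RKO_shE2 and RKO_NC, against 0.79 and 0.90 FPKM in HCT116_shE2 and HCT116_NC. POLE4, a subunit of polymerase epsilon, had 50.28 and 43.85 FPKM in RKO_shE2 and RKO_NC, against 7.09 and 6.86 FPKM in HCT116_shE2 and HCT116_NC.

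Lower in RKO were PLK2 and CDK14, given above, and CDC25C, the phosphatase that activates CDK1 at mitotic entry. CDC25C had 0.89 and 0.66 FPKM in RKO_shE2 and RKO_NC, against 13.58 and 11.87 FPKM in HCT116_shE2 and HCT116_NC, a fitted difference of -2.95 ± 0.15 (SE; limma adjusted p 0.000828). KIF18A was lower in RKO by -3.25 ± 0.46 (SE; limma adjusted p 0.00706), with the RKO libraries apart. Of the 31 members higher in RKO_shE2, 25 were over 1.2-fold lower in RKO_NC than in HCT116_NC. These 31 had a median RKO minus HCT116 difference of -0.10 between the shE2 libraries and -1.2 between the NC libraries. Both the line and the knockdown difference share RKO_NC. Between the NC libraries the median was -0.12 over all measured members and -0.29 over all measured genes, the latter itself past 1.2-fold. Over all measured genes past 1.2-fold higher in RKO, the median difference between the NC libraries was -0.94, so the members did not stand alone in this.

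**Figure D4:**
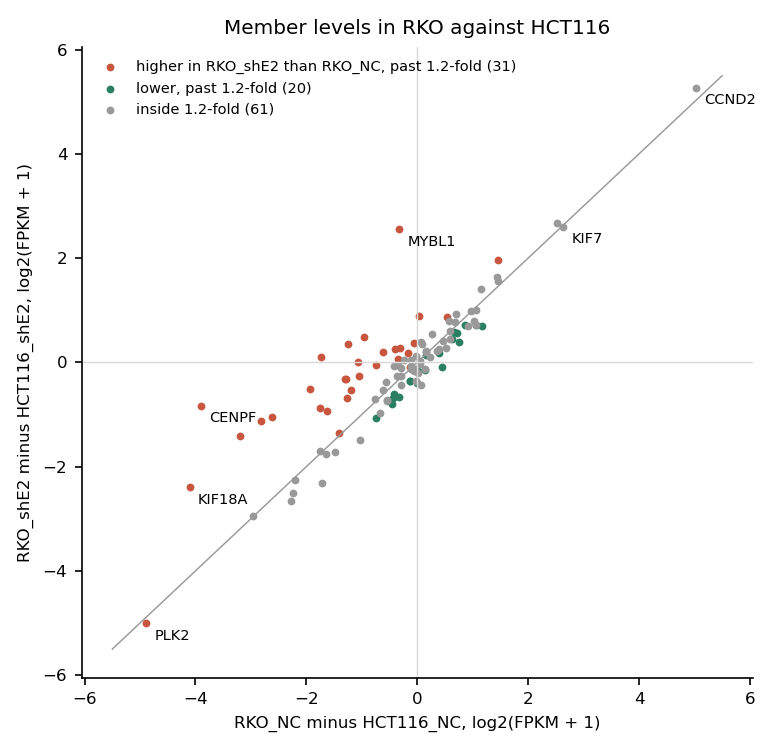
Level of each measured member in RKO minus HCT116 on the log2(FPKM + 1) scale, in the shE2 libraries (y axis) against the NC libraries (x axis), coloured by its RKO difference. Points above the line have a larger shE2 minus NC difference in RKO than in HCT116, and the 31 higher members lie mostly left of 0 on the x axis.

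Base composition moved with the RKO differences. Of 23 measured members whose transcript had a GC content under 40%, 19 were past 1.2-fold higher in RKO_shE2 (82.6%) and 0 lower, where 66.5% of 1027 measured genes of that GC content were higher. Of 27 members with a GC content of 55% or more, 1 was higher and 6 lower, where 9.05% and 14.6% of measured genes of that GC content were. The median GC content was 39.1% over the 31 higher members, 51.1% over the 20 lower members and 46.4% over all members. Across the 112 members, which are not independent replicates and share the same libraries, Spearman's rho between GC content and difference was -0.56 in RKO and -0.26 in HCT116, beside -0.39 and -0.17 across all measured genes. For transcript length rho was 0.16 in RKO and 0.34 in HCT116, beside 0.17 and 0.20 across all measured genes. Members of low GC content were also the lower ones in RKO_NC, at a median of -1.05 relative to HCT116_NC, beside -0.96 for all measured genes of that GC content.

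**Figure D5:**
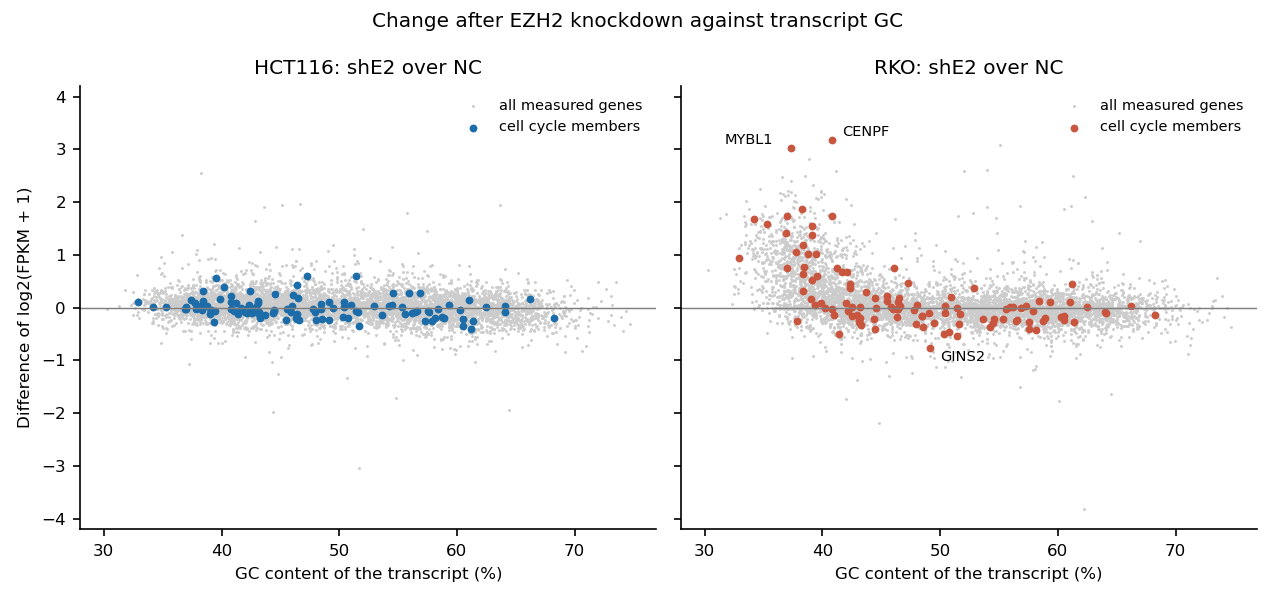
Difference of log2(FPKM + 1), shE2 minus NC, against transcript GC content in HCT116 (left) and RKO (right) for the measured members (coloured) and all measured genes with a value (grey). In RKO the points of both sets are higher at the low end, with the members under 40% GC at a median of 1.01 beside 0.53 for all measured genes.

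Subtracting a trend with GC content over all genes kept 25 of the 31 higher and 14 of the 20 lower members past 1.2-fold the same way in RKO. CENPF then stood at 3.01, MYBL1 at 2.45, TTK at 1.57, KIF14 at 1.42 and KIF5B at 1.2. The subtraction took more from KIF20B, which stood at 0.70 against 1.69 before, from CENPE (0.74 against 1.58), from CCNE2 (0.79 against 1.42) and from CDK6 (0.31 against 0.60). CDK1 stood at 0.14, KIF11 at 0.20 and CDC7 at 0.18, inside 1.2-fold, and CENPK and CENPU turned, to -0.24 and -0.12, against 0.93 and 0.31 before. Of the origin licensing and helicase genes 10 remained lower and 2 higher. The part of base composition in the other differences was not tested.

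The promoter letters also lay unevenly over the RKO directions. Of 27 higher members with a promoter entry, 14 held a CHR and 6 an E2F site, and of 16 lower members 1 held a CHR and 9 an E2F site. Of the 51 members inside 1.2-fold, 9 held a CHR and 10 an E2F site. A CCAAT box alone did not follow the CHR, with 14 of the 27 higher, 11 of the 16 lower and 26 of the 51 inside. CHR and CCAAT stood together in 11 of the 27 higher, 0 of the 16 lower and 8 of the 51 inside. Over all measured genes with a promoter entry 4.60% held both. The 0 rests on the 1 lower member with a CHR, which had no CCAAT box. Mitotic kinesins lie mostly among the higher members and licensing genes among the lower, and no test was made.

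Genes of the same processes outside these families were looked at next. Of 83 other cell cycle genes 69 were listed and measured, and in RKO_shE2 15 were higher and 13 lower past 1.2-fold, or 13 and 14 less the GC trend. That was 21.7% and 18.8%, beside 22.7% and 10.9% of all measured genes, so the higher share was near the background. In HCT116_shE2 3 were higher and 2 lower, or 4.35% and 2.90%, beside 12.7% and 9.66%. ASPM, a spindle pole protein, had 7.61 FPKM in RKO_shE2 against 0.87 in RKO_NC, and 11.47 in HCT116_shE2 against 9.88 in HCT116_NC. SMC2, a condensin subunit, had 13.95 FPKM in RKO_shE2 against 2.70 in RKO_NC, and 10.72 in HCT116_shE2 against 11.22 in HCT116_NC. KNL1, the scaffold of the outer kinetochore, had 9.50 FPKM in RKO_shE2 against 2.05 in RKO_NC, and 10.35 in HCT116_shE2 against 8.70 in HCT116_NC. All 3 have transcripts of low GC content, at 37.1%, 37.6% and 38.1%.

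CDKN2B, the CDK inhibitor p15 and a Polycomb target in many cell types, had 8.54 FPKM in RKO_shE2 against 2.60 in RKO_NC, and 3.10 in HCT116_shE2 against 2.15 in HCT116_NC. It was past 1.2-fold higher in both lines, and its GC-subtracted RKO difference was 1.39. CDCA7, a replication-associated chromatin factor, had 32.80 FPKM in RKO_shE2 against 44.48 in RKO_NC, and 20.97 in HCT116_shE2 against 28.20 in HCT116_NC. POLD1, the catalytic subunit of polymerase delta, had 27.51 FPKM in RKO_shE2 against 34.41 in RKO_NC, and 20.45 in HCT116_shE2 against 24.30 in HCT116_NC. RPA3, of the single-strand binding complex, and PKMYT1, an inhibitory kinase of CDK1, were lower in RKO_shE2 at -0.37 and -0.31 and in HCT116_shE2 at -0.22 and -0.25.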

How the data were processed

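Total RNA from 4 cell line samples was sequenced after TruSeq preparation on an MGISEQ-2000. The authors mapped reads with Bowtie and quantified genes with RSEM. The submitters' processing notes list Bowtie2, BWA, hg19 and GRCh37, whereas the study's methods name a mouse build, and versions are not given in the sources used here. The deposited table gave for each gene and library an expected count as estimated by RSEM, which need not be whole, and an FPKM value with 2 decimals. Columns with the authors' own log2 ratio were not used. The table was a partial gene list, so shares refer to the listed genes.

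Differences were log2(FPKM + 1), shE2 minus NC within a line, for genes with a mean of at least 1 FPKM. The pseudocount of 1 understates the change of low genes. With 1 library a group no test was possible within a line, and 1.2-fold, the study's limit for higher genes, was applied in both directions, although the study set a stricter one for lower genes. Common and line effects were tested with limma 3.58.1 in R 4.3.3 (eBayes with trend, Benjamini-Hochberg at 0.05). Since expected counts were deposited beside FPKM, edgeR 4.0.16 and DESeq2 1.42.0 were run on rounded counts as alternatives, and count ratios got exact binomial 95% intervals. Scripts were tested on simulated data. Transcript GC content came from GENCODE release 29 (99.1% of measured genes), and the GC trend was a lowess fit with a span of 0.3. Promoters came from RefSeq.

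Named members were the 8 largest differences in each direction and line, those past the fold in both lines, the 4 largest line differences in each direction, the 2 most abundant per role, fixed paralog pairs and members at 0 in a line. The names beyond that rule were chosen after their values were seen. The members and lists were chosen with earlier results of these data known.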

Additional observations from a re-analysis of the deposited data

Results flagged for a closer look

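PLK3, a polo kinase of the stress response, differed in opposite directions in the lines past 1.2-fold. It had 10.72 FPKM in RKO_shE2 against 7.59 in RKO_NC, a difference of 0.45 on the log2(FPKM + 1) scale, and 5.32 FPKM in HCT116_shE2 against 7.37 in HCT116_NC, a difference of -0.41. The count ratios were 1.41 (exact binomial 95% interval 1.23 to 1.62) and 0.722 (0.606 to 0.860). With 1 library a group this contrast of HCT116 and RKO was not tested.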

How the results depend on the processing

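Each group was 1 library, so no library could be left out. The limma fit of the common change pairs shE2 and NC within a line, and without the line as a term 0 members had an unadjusted p under 0.05. Counts of members past 1.2-fold depended on the setting. The share of all measured genes past 1.2-fold was counted only for unscaled FPKM with a pseudocount of 1. Higher in HCT116 were 11, but 4 with a mean of at least 5 FPKM, 7 with median-of-ratios scaling and 2 at 1.5-fold. Lower in HCT116 were 4, but 7 with median-of-ratios scaling, 8 with the GC trend subtracted and 0 at 1.5-fold. Lower in RKO were 20, but 41 with median-of-ratios scaling and 1 at 1.5-fold. Higher in both lines were 4, but 0 at 1.5-fold. Lower in both lines were 0, but 1 with a pseudocount of 0.1, 3 with median-of-ratios scaling, 2 with the GC trend subtracted and 1 on depth-scaled counts. The RKO median was 0, but -0.13 with median-of-ratios scaling. The cause was not tested. Of the 51 RKO members past the fold, 48 kept their call with median-of-ratios scaling and 39 with the GC trend subtracted. Of the 15 HCT116 members, 11 and 14 did. MCM7, CENPM, CDK5 and KIF24 lost theirs in RKO with the GC trend subtracted, at -0.23, -0.22, -0.22 and -0.25. In HCT116 CDK3 was at 0.26 and KIF5C at 0.24 with median-of-ratios scaling, KIF5C at 0.22 with the GC trend subtracted, and MAD2L1 at -0.25 with equal FPKM totals. Low genes such as PLK2 in RKO are limited by depth.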
